A study of Saccharomyces cerevisiae with 4 samples.

Results

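Autophagy genes and vacuolar protease genes were followed in budding yeast, Saccharomyces cerevisiae, that carried the plant gene AAE13, against a vector control. The set was taken by name: every probe whose current symbol is ATG and a number, plus the vacuolar protease genes PEP4, PRB1, PRC1, APE3 and CPS1, and VPS30, also known as ATG6. A yeast reference table lists 43 such genes, and 30 of them had a named probe, 1 each, among 4072 named genes. Of these 30, 24 were found under an older symbol such as APG1 for ATG1, AUT7 for ATG8 or ICY2 for ATG41. All 30 were measured on all 4 arrays. ATG23, ATG27, ATG29, ATG31, ATG33, ATG34, ATG36, ATG38, ATG39, ATG40, ATG42, ATG44 and ATG45 had no named probe and were not analysed here.

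AAE13 encodes a malonyl-CoA synthetase, which makes malonyl-CoA from malonate. The transgenic strain carried pAG305GPD-AAE13, in which the strong constitutive GPD promoter drives AAE13, and the control strain carried pAG305GPD-ccdB, the same vector with the ccdB cassette in its place. Cultures of both strains were grown with shaking at 30 °C in SD-drop out medium, both received 0.2 mM malonate, and RNA was taken in mid-log phase, so no group lacked malonate. Whether a strain was 1 clone is not given in the sources used here. Each of 4 two-colour arrays paired 1 AAE13 culture with 1 control culture, and the dyes were swapped: AAE13 was labelled with Cy5 for arrays 1 and 3, and with Cy3 for the other two.

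Autophagy is the route by which a cell encloses its own cytoplasm in a double membrane and delivers it to the vacuole, the yeast counterpart of the lysosome. The Atg1 kinase complex starts the process, a phosphatidylinositol 3-kinase complex and Atg9 vesicles build the membrane, and a pair of ubiquitin-like conjugation systems attach Atg8 to lipid and Atg12 to Atg5. Inside the vacuole the proteases take over, with proteinase A, the product of PEP4, activating several of the others. Growing yeast uses much of the same machinery for the Cvt pathway, which carries aminopeptidase I to the vacuole. Transcription of many ATG genes is known to rise when yeast is starved of nitrogen.

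The values are log2 ratios, AAE13 over ccdB, with the median of each array set to 0, so that a positive value means higher in the AAE13 strain than the typical probe. No source used here states the direction of the deposited ratios. Over all probes, arrays of opposite dye orientation correlated at 0.576 on average and arrays of the same orientation at 0.693, so all arrays were read as running 1 way. The series title sets AAE13 first and ccdB second, which makes AAE13 over ccdB the likely way. If it were the inverse, every "higher" and "lower" below would trade places. If the ratios had never been turned and were Cy5 over Cy3, limma would call 0 of the 30 genes described here and 0 of all 4072, with 3 and 154 at an unadjusted p under 0.05. Each culture is a bulk sample, in which more transcript per cell and more cells with the transcript cannot be told apart. The log base was inferred to be 2, and folds rest on that. No spot intensities were analysed, so it is not known how far each probe stood above background, and levels of different genes were not compared.

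Most of the autophagy and vacuolar protease genes did not pass the test. At a limma adjusted p under 0.05, 4 of the 30 were higher in the AAE13 strain (ATG14, ATG13, ATG7 and PEP4) and 1 was lower (ATG5), while 25 did not pass. That is 16.7% of the genes, where 24.8% of all named genes passed; the background was 13% higher and 11.8% lower. Without array 4 only ATG14 and ATG5 passed, when 10.5% of all named genes did. With the arrays not centred, ATG41 joined the genes that were higher and ATG5 dropped out, so that 5 were higher and 0 lower, when 19.6% of all named genes passed. At an unadjusted p under 0.05 the count was 8 of 30, against 39.8% of all named genes. ATG14 alone passed with a mean difference of at least 2-fold, as 12.5% of all named genes did. Only 10 of the 30 genes (33.3%) had the same sign on every array, 8 above 0 and 2 below, against 46.4% of all named genes (22.8% above and 23.5% below). The median of the 30 mean log2 ratios was 0.13, against -0.02 for all named genes, and 18 of the 30 means lay above 0, against 1956 of 4072. On single arrays the median of the set was 0.25, 0.42, -0.05 and -0.05 for arrays 1 to 4. The typical size of a mean, taken without its sign, was 0.30 for the set and 0.38 for all named genes.

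**Figure D1:**
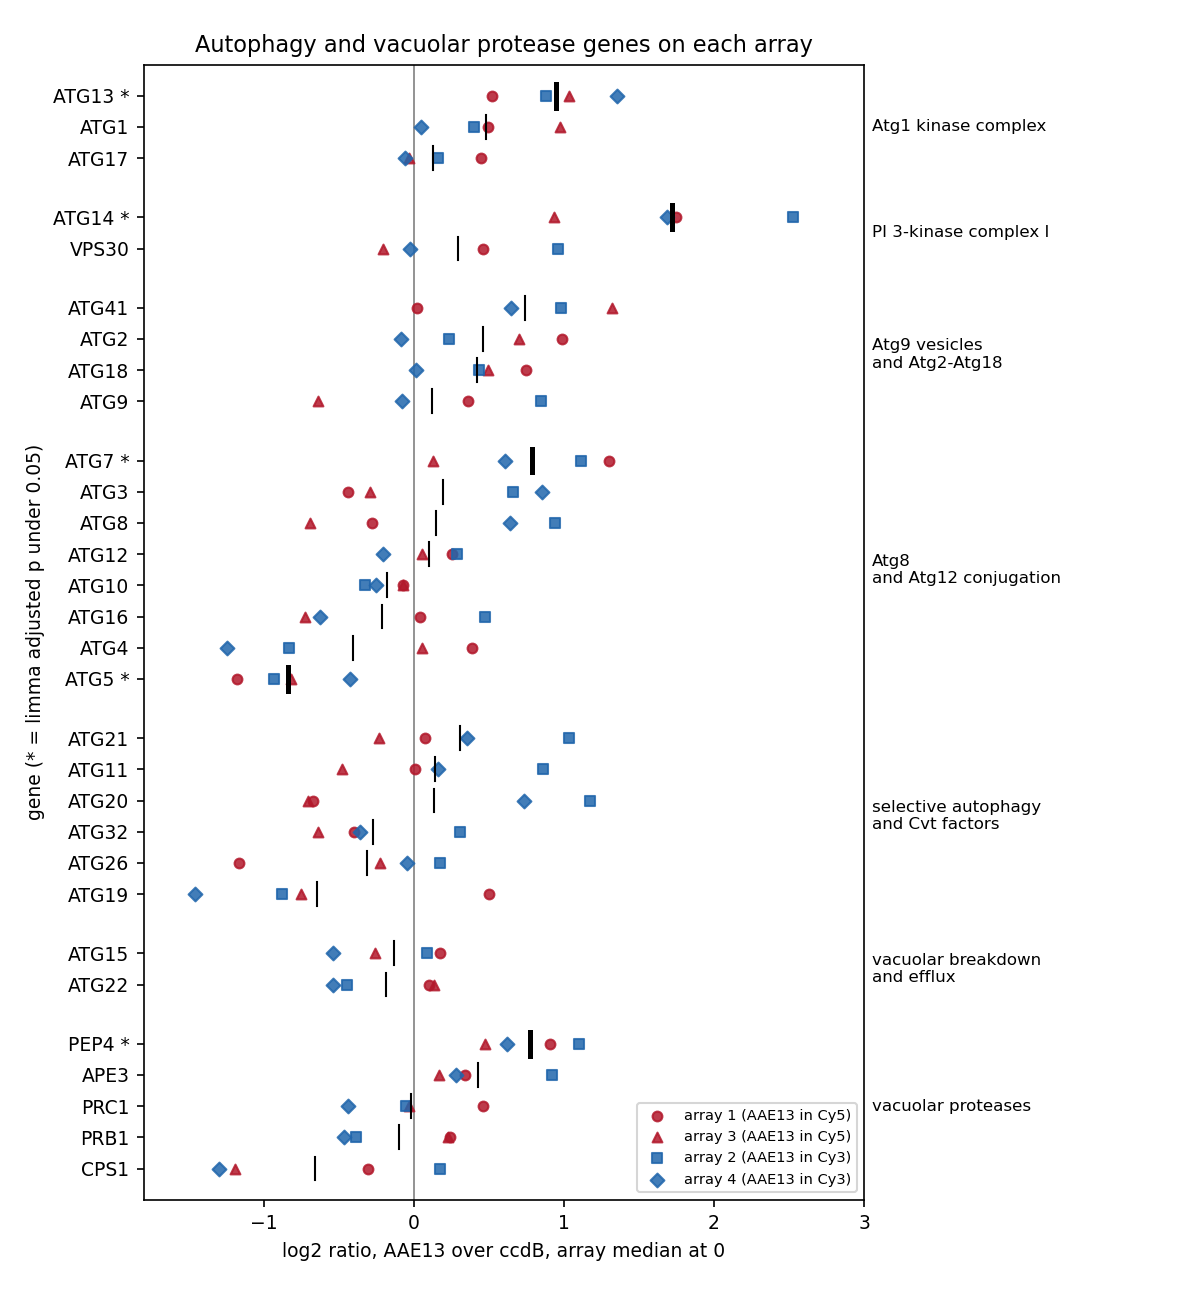
Log2 ratios (x axis, AAE13 over ccdB, array median at 0) of the 30 genes on each of 4 arrays, grouped by role. Points are arrays, red with AAE13 in Cy5 and blue with AAE13 in Cy3; short black lines are means, thick for the 5 genes that passed. The points of ATG14, ATG13, ATG7 and PEP4 all lie above 0 and those of ATG5 all below. In ATG3, ATG8, ATG20, ATG4, PRB1 and ATG22 the red and blue points lie on opposite sides of 0. Other genes, such as ATG2 and ATG10, also separate by colour, but not into opposite sides of 0.

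In the Atg1 kinase complex, ATG13 was higher and the other measured subunits did not pass. That is a called share of 33.3% over 3 genes, against 24.8% of all named genes. ATG13 encodes the regulatory subunit that TORC1, the nutrient-sensing kinase complex, keeps phosphorylated in fed cells. Its log2 ratios were 0.52, 0.88, 1.03 and 1.35 on arrays 1 to 4. All 4 lay above 0, with a mean of 0.95 ± 0.35 (SD, n = 4), a 1.93-fold difference with a limma adjusted p of 0.0116. ATG1 itself, the kinase gene, had 0.49, 0.40, 0.97 and 0.05. It too was above 0 on every array, but its mean of 0.48 ± 0.38 (SD, n = 4) missed the threshold (limma adjusted p = 0.111). ATG17, the gene of the scaffold that organises the complex in starved cells, was at 0.45, 0.16, -0.04 and -0.06, on both sides of 0. The call of ATG13 was lost without array 4, at a mean of 0.81 and a limma adjusted p of 0.0624. Over the settings tried that keep the direction reading, its adjusted p ran from 0.00331 to 0.0885.

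ATG14 showed the largest difference of the 30. It encodes the subunit that is particular to phosphatidylinositol 3-kinase complex I and directs that kinase to the site where autophagosomes form. Its log2 ratios were 1.75, 2.53, 0.93 and 1.68 on arrays 1 to 4. Even its lowest array lay above the highest array of 19 of the other 29 genes, and the mean was 1.72 ± 0.65 (SD, n = 4). The AAE13 strain thus had 3.3 times the control level (95% interval of the log2 ratio 1.12 to 2.32; limma adjusted p = 0.00384), at percentile 97.9 of all named genes. The call held without each array in turn. VPS30, which encodes the yeast Beclin 1 homologue and serves both complex I and the vacuolar sorting complex II, did not follow it, with 0.46, 0.96, -0.21 and -0.03. Its mean of 0.30 ± 0.53 (SD, n = 4) missed the threshold (limma adjusted p = 0.366). The catalytic and regulatory subunits that both complexes share lie outside the set: VPS34, the kinase gene, was at 0.48 ± 0.10 and VPS15 at 0.19 ± 0.37 (SD, n = 4), and neither passed (limma adjusted p = 0.0601 and 0.507), although VPS34 did with a dye term (0.037).

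None of the 4 measured genes of Atg9 vesicles and of the Atg2-Atg18 complex passed, where 24.8% of all named genes did. All 4 means lay above 0, as did 1956 of 4072 over all named genes. At an unadjusted p under 0.05 in the same limma fit, 1 of the 4 passed, against 39.8% of all named genes. ATG41, whose product binds Atg9, came closest, with 0.02, 0.98, 1.32 and 0.65 on arrays 1 to 4. It was above 0 on every array, barely so on array 1, at a mean of 0.74 ± 0.56 (SD, n = 4; limma adjusted p = 0.054). It passed without array 1, at a mean of 0.98 and a limma adjusted p of 0.0323, and also with the arrays not centred (0.0134); its adjusted p over all settings that keep the direction ran from 0.0134 to 0.202. ATG2, the gene of the lipid transfer protein of the growing membrane, was at 0.46 ± 0.48, and ATG18, which encodes its phosphoinositide-binding partner, at 0.42 ± 0.30 (SD, n = 4; limma adjusted p = 0.154 and 0.126). ATG9, the gene of the membrane protein of these vesicles, had 0.36, 0.84, -0.64 and -0.08. Its arrays were split evenly around 0, with a mean of 0.12 ± 0.63 (SD, n = 4; limma adjusted p = 0.75).

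Of 8 measured conjugation genes, 1 was higher, 1 was lower and 6 did not pass, a called share of 25% against 24.8% of all named genes. ATG7, which encodes the E1-like enzyme that activates both Atg8 and Atg12, had 1.30, 1.12, 0.13 and 0.60 on arrays 1 to 4. It was higher on all 4, least on array 3, with a mean of 0.79 ± 0.53 (SD, n = 4), which is 1.72-fold with a limma adjusted p of 0.0419. This call stood close to the threshold: it was lost without array 1 (mean 0.62, limma adjusted p = 0.154), without array 2 (0.68, 0.103) and without array 4 (0.85, 0.109), and with a dye term (0.0604). ATG5 encodes the acceptor to which Atg12 is attached. It had -1.18, -0.94, -0.82 and -0.43, below 0 on every array. Its mean of -0.84 ± 0.31 (SD, n = 4) made it 1.79-fold lower (limma adjusted p = 0.0155). Its call was lost without array 1 (mean -0.73, limma adjusted p = 0.0727) and with the arrays not centred (-0.23, 0.714), where the typical gene lies at 0.58. So ATG5 was low relative to the typical gene, and its deposited ratios themselves averaged -0.23. Over the settings that keep the direction reading, the adjusted p of ATG7 ran from 0.0102 to 0.176 and that of ATG5 from 0.0125 to 0.714.

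ATG8, the gene of the ubiquitin-like protein that coats the autophagosome, did not pass. Its log2 ratios were -0.28, 0.94, -0.70 and 0.64 on arrays 1 to 4. Both arrays with AAE13 in Cy3 were above 0 and both with AAE13 in Cy5 below, so the groups of arrays did not overlap and the mean of 0.15 ± 0.77 (SD, n = 4; 95% interval -0.52 to 0.82; limma adjusted p = 0.727) describes neither. ATG3, the gene of the E2-like enzyme that transfers Atg8 to lipid, showed the same split, with -0.44, 0.66, -0.29 and 0.85. ATG4, which encodes the protease that processes Atg8 and releases it again, split the other way, with 0.39, -0.83, 0.06 and -1.25. Their means of 0.20 ± 0.66 and -0.41 ± 0.76 (SD, n = 4) missed the threshold (limma adjusted p = 0.604 and 0.324). Of the Atg12 branch beside ATG5, no gene passed. ATG12 was at 0.10 ± 0.23, ATG10, which encodes its E2-like enzyme, at -0.18 ± 0.13, and ATG16, whose product binds the Atg12-Atg5 conjugate, at -0.21 ± 0.57 (SD, n = 4; limma adjusted p from 0.434 to 0.701). ATG10 had the smallest spread of the 30 genes and was below 0 on every array.

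Of 6 measured genes of selective autophagy and the Cvt pathway, 0 passed in limma, against 24.8% of all named genes. At an unadjusted p under 0.05 in limma 0 passed, against 39.8% of all named genes. ATG19 encodes the receptor for aminopeptidase I. It had 0.50, -0.88, -0.76 and -1.46 on arrays 1 to 4, so array 1 alone was above 0. Its mean was -0.65 ± 0.83 (SD, n = 4; limma adjusted p = 0.152), and without array 1 it passed, at -1.03 with a limma adjusted p of 0.0296 (0.0296 to 0.951 over the settings that keep the direction). APE1, which encodes the cargo of this receptor and lies outside the set, was instead higher at 1.18 ± 1.02 (SD, n = 4; limma adjusted p = 0.0479), with 2.04, 0.03, 2.03 and 0.62. Its ratio was larger on both arrays with AAE13 in Cy5, and its call was lost without array 1 (mean 0.89, limma adjusted p = 0.154), array 3 (0.90, 0.0888) or array 4 (1.37, 0.0959) and with quantile normalization (0.0529). ATG11, the gene of the scaffold for selective cargo, was at 0.14 ± 0.55, ATG21, which encodes a phosphoinositide-binding protein, at 0.31 ± 0.54, and ATG32, the gene of the mitophagy receptor, at -0.27 ± 0.40 (SD, n = 4). ATG26, a sterol glucosyltransferase gene, was at -0.32 ± 0.59, with array 1 at -1.16 and the other arrays between -0.23 and 0.17. ATG20, a sorting nexin gene, had the widest spread of the 30, with -0.67, 1.17, -0.71 and 0.73. Like ATG8 and ATG3 it was below 0 with AAE13 in Cy5 and above 0 with AAE13 in Cy3.

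ATG15 and ATG22, which act inside the vacuole beside the proteases, did not pass, where 24.8% of all named genes did. ATG15, the gene of the lipase that opens autophagic bodies, had 0.17, 0.09, -0.26 and -0.54, and ATG22, which encodes a vacuolar exporter of amino acids, had 0.10, -0.45, 0.13 and -0.54. Their means were -0.14 ± 0.33 and -0.19 ± 0.35 (SD, n = 4; limma adjusted p = 0.618 and 0.491).

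Of the 5 vacuolar protease genes, PEP4 was higher and the others did not pass, a called share of 20% against 24.8% of all named genes. PEP4, the gene of proteinase A, had 0.91, 1.10, 0.47 and 0.62 on arrays 1 to 4. All 4 values lay above 0 within a narrow band, and the mean of 0.77 ± 0.28 (SD, n = 4) amounts to 1.71-fold (limma adjusted p = 0.0192). Leaving out array 1, 2 or 4 ended the call, at means of 0.73, 0.66 and 0.82 and limma adjusted p of 0.079, 0.0629 and 0.0652. The adjusted p ran from 0.011 to 0.0885 over the settings that keep the direction.

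The other protease genes showed no common shift. PRB1, the gene of proteinase B, had 0.24, -0.39, 0.23 and -0.47, above 0 with AAE13 in Cy5 and below 0 with AAE13 in Cy3. PRC1, the gene of carboxypeptidase Y, had 0.46, -0.05, -0.03 and -0.44. The means were -0.10 ± 0.38 for PRB1 (95% interval -0.55 to 0.36) and -0.02 ± 0.37 for PRC1 (-0.47 to 0.43; SD, n = 4), and both intervals lie inside a 2-fold difference (limma adjusted p = 0.739 and 0.956). APE3, which encodes aminopeptidase Y, was above 0 on every array, from 0.17 to 0.92, but its mean of 0.43 ± 0.34 (SD, n = 4) missed the threshold (limma adjusted p = 0.13). CPS1, the gene of carboxypeptidase S, had -0.31, 0.17, -1.19 and -1.30. It was clearly below 0 on arrays 3 and 4, and its mean of -0.66 ± 0.71 (SD, n = 4; limma adjusted p = 0.114) passed only when array 2 was left out (-0.93, limma adjusted p = 0.0287; 0.0287 to 0.94 over the settings that keep the direction).

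Among the 25 genes that did not pass, 21 had a 95% interval of the mean that stayed within a 2-fold difference either way. The interval of the remaining 4 reached further: ATG41 (0.20 to 1.28), CPS1 (-1.29 to -0.02), ATG19 (-1.35 to 0.06) and ATG4 (-1.07 to 0.25). For these genes the 4 arrays leave a 2-fold difference within the interval. The matching share over all named genes that did not pass was not computed. A p above the threshold does not show that the strains had equal levels.

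**Figure D2:**
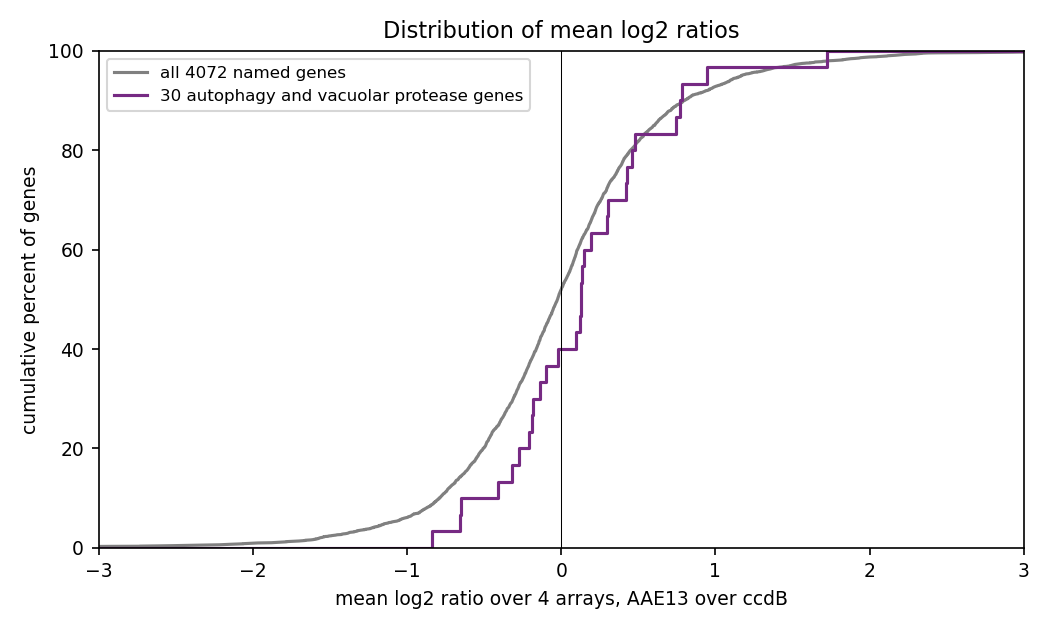
Cumulative percent of genes (y axis) by mean log2 ratio over 4 arrays (x axis, AAE13 over ccdB). The purple steps are the 30 autophagy and vacuolar protease genes and the grey line all 4072 named genes, 22 of which lie beyond the axis. The purple steps begin at -0.84 and end at 1.72, and their median of 0.13 lies to the right of the grey line's -0.02.

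No gene of the set passed a test of the dye difference, though some split by dye. Of the variance within genes, the dye orientation held 55.4% for the 30 genes and 44% for all named genes. Noise alone would also place part of the variance of 4 arrays on this split, so these shares are not the part due to the dye. The median SD over arrays was 0.50 for the 30 genes against 0.39 for all named genes. In 6 of the 30 genes both arrays of 1 dye orientation lay above 0 and both of the other below: ATG3, ATG8 and ATG20 were high with AAE13 in Cy3, and ATG4, PRB1 and ATG22 with AAE13 in Cy5. That is 20% of the set, where 13.5% of all named genes show such a split. Tested gene by gene with limma, the dye difference passed for 0 of 30 and 0 of 4072 genes, with 7 and 721 at an unadjusted p under 0.05. ATG20 had the largest, at -1.64 (Cy5 minus Cy3), then ATG8 at -1.28, ATG4 at 1.26 and ATG3 at -1.12 (limma adjusted p = 0.22 for each of the 4, the lowest value over all named genes). For the 5 genes that passed the strain test the difference was between -0.77 (ATG14) and -0.15 (ATG7), so that the ratio was lower with AAE13 in Cy5. Each of the 5 had the same sign on every array, so its lying on 1 side of 0 under both orientations adds nothing about the dye. With a dye term in the fit, ATG14, ATG13, PEP4 and ATG5 passed, when 31.3% of all named genes did. The part of the dye in the ratios of ATG8, ATG3, ATG20 and ATG4 was not tested beyond this.

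**Figure D3:**
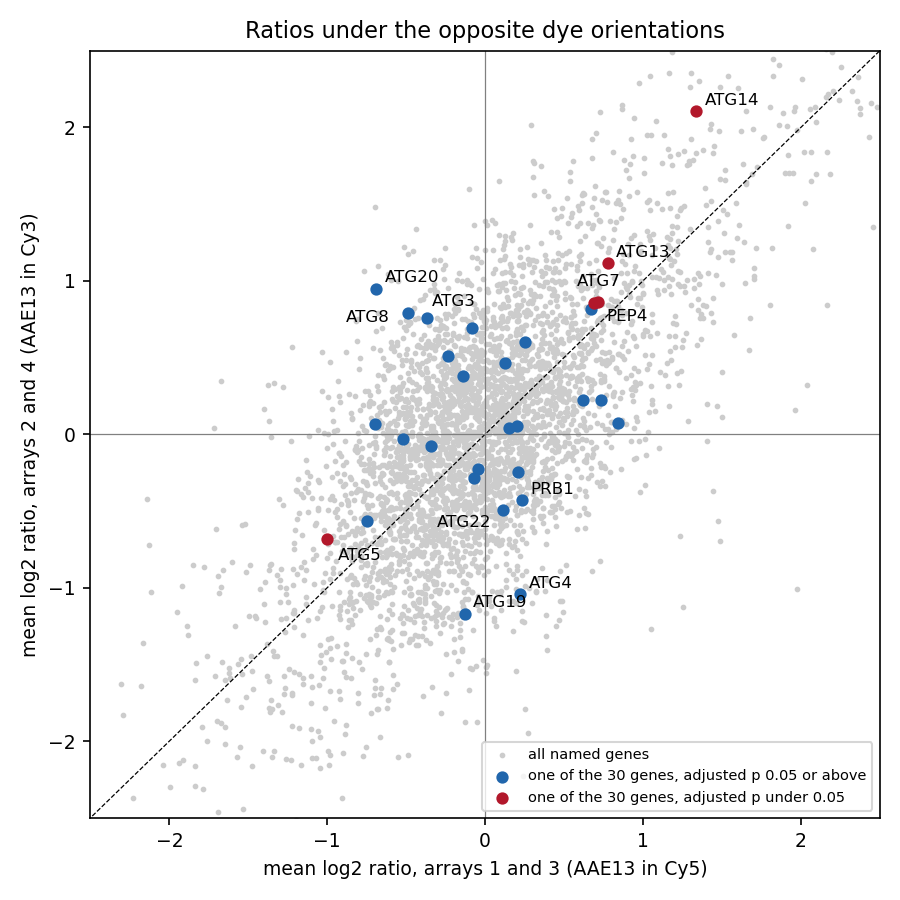
Mean log2 ratio of arrays 1 and 3, with AAE13 in Cy5 (x axis), against that of arrays 2 and 4, with AAE13 in Cy3 (y axis). Grey points are all named genes, 62 of which lie beyond the axes; red and blue points are the 30 genes that did and did not pass the strain test, and the dashed line marks equal ratios. Red points lie on the same side of 0 on both axes, while ATG20, ATG8 and ATG3 lie in the upper left quadrant and ATG4 in the lower right.

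Genes that act beside the set were read from lists of known factors, as counts with no test of a list. The inhibitors of the vacuolar proteases had the highest median of these lists, at 1.37 over 3 genes, of which 2 were higher (66.7%, against 24.8% of all named genes). PAI3, which encodes the inhibitor of proteinase A, had 1.23, 1.96, 1.09 and 1.19 on arrays 1 to 4. TFS1, the gene of the carboxypeptidase Y inhibitor, had 1.79, 2.33, 0.73 and 1.37. Both were higher on every array, by 2.58-fold at 1.37 ± 0.40 and 2.94-fold at 1.55 ± 0.68 (SD, n = 4; limma adjusted p = 0.00339 and 0.00592), and both calls held without each array in turn. PBI2, which encodes the inhibitor of proteinase B, had 0.73, 1.90, -0.49 and 0.57 and did not pass (0.68 ± 0.98, SD, n = 4; limma adjusted p = 0.184), except without array 3 (mean 1.07, limma adjusted p = 0.0257) or with the arrays not centred (0.0196). So PAI3 lay above PEP4, the gene of its target, on every array. PRC1, the gene of the target of Tfs1, had a mean near 0, with arrays from -0.44 to 0.46. The difference between inhibitor and target genes was not tested.

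Of 5 other vacuolar hydrolase genes, 2 were higher, APE1 and ATH1, a called share of 40% against 24.8% of all named genes. ATH1, the acid trehalase gene, was at 1.22 ± 0.50 (SD, n = 4; limma adjusted p = 0.0082). Of 27 genes for sorting to the vacuole, 1 was higher, 2 were lower and 24 did not pass, with a median of 0.09. The Sec1-like gene VPS33 was at 0.82 ± 0.22, the endosomal syntaxin gene PEP12 at -0.78 ± 0.51, and PEP1, which encodes the sorting receptor for carboxypeptidase Y, at -0.63 ± 0.30 (SD, n = 4; limma adjusted p = 0.0128, 0.0402 and 0.0412). None of the 3 passed without array 1 (limma adjusted p from 0.0634 to 0.161), PEP12 also without array 2 or 3 (0.0548 and 0.074), and PEP1 also without array 2 or 4 (0.0828 and 0.144). With the arrays not centred, PEP12 and PEP1 were at -0.17 and -0.02 and did not pass. Of 12 genes for fusion with the vacuole, 2 were higher and 10 did not pass: the SNARE gene VTI1 was at 1.17 ± 0.35 and VPS41, which encodes a subunit of the tethering complex HOPS, at 1.11 ± 0.39 (SD, n = 4; limma adjusted p = 0.00511 and 0.00725). Among 10 further autophagy and Cvt factors without an ATG name, 1 was higher, TRS20, a subunit gene of the tethering complex TRAPP, at 0.80 ± 0.24 (SD, n = 4; limma adjusted p = 0.0149), and its call was lost without array 2 or 4 (0.0517 and 0.0641).

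Most genes upstream of autophagy did not pass, and neither did most of all named genes. In the TORC1 list, 2 of 14 measured genes were higher, 2 were lower and 10 did not pass, a called share of 28.6% against 24.8% of all named genes, with a median of -0.29. The kinase genes TOR1 and TOR2 are close copies, and whether their probes cross-hybridise was not examined. They were at 0.13 ± 0.53 and -0.38 ± 0.34 (SD, n = 4) and missed the threshold (limma adjusted p = 0.696 and 0.167). GTR1 and GTR2, which encode the Rag GTPases that relay amino acid supply to TORC1, were at 0.66 ± 0.29 and 0.65 ± 0.39 (SD, n = 4; limma adjusted p = 0.0346 and 0.0484). LST8, a subunit gene of both TOR complexes, was at -0.85 ± 0.19, and LST4, which encodes part of a regulator of these GTPases, at -0.83 ± 0.23 (SD, n = 4; limma adjusted p = 0.0107 and 0.013). The GTR1 call was lost without array 1, 3 or 4 (limma adjusted p from 0.089 to 0.117) and that of GTR2 without array 1, 2 or 4 (0.0866 to 0.179), with array weights (0.0543) and with all probes tested (0.0505). The LST8 call was lost without array 1 (0.0522) and the LST4 call without array 4 (0.0686), and with the arrays not centred these genes were at -0.24 and -0.22 and did not pass.

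Of 15 kinase and phosphatase factor genes that control autophagy, 1 was higher and 14 did not pass (6.67% called, against 24.8% of all named genes). SNF1, the gene of the yeast AMP-activated kinase, was at 0.80 ± 0.49 (SD, n = 4; limma adjusted p = 0.0363), a call lost without array 1, 2 or 4 (0.0918 to 0.107). Of 14 transcription factor and corepressor genes reported to act on ATG genes, 3 were higher, 2 were lower and 9 did not pass (35.7% called). MSN4, a general stress factor gene, was at 1.32 ± 0.66, and URE2, whose product holds the nitrogen factor Gln3 in the cytoplasm, at 1.23 ± 0.39 (SD, n = 4; limma adjusted p = 0.0108 and 0.00496); the call of MSN4 was lost without array 4 (0.0636). PHO23, of the Rpd3 deacetylase complex, was the third, at 0.86 ± 0.39 (SD, n = 4), not called without array 4 (0.0789), and is named after its value was seen. DAL80, a repressor gene of nitrogen catabolism that Gln3 itself induces, had -1.85, -1.45, -2.74 and -2.21. It was far below 0 on every array, 4.18-fold lower with a mean of -2.06 ± 0.55 (SD, n = 4). The limma adjusted p was 0.00144. The DAL80 call held without each array in turn but was lost in the unmoderated test (adjusted p = 0.0669). GZF3, a related repressor gene, was at -0.74 ± 0.42 (SD, n = 4; limma adjusted p = 0.0363), a call lost without array 1, 3 or 4 (0.0707 to 0.118) and with the arrays not centred (-0.13). GLN3 was at 0.63 ± 0.59, UME6, which encodes a repressor of ATG8, at -0.44 ± 0.29, and MSN2 at 0.20 ± 0.38 (SD, n = 4), and none of these passed (limma adjusted p = 0.0932, 0.109 and 0.481), GLN3 doing so with a dye term (0.034) or with the arrays not centred (0.0256).

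The vacuolar proton pump and the proteasome were compared by counts, against the 24.8% of all named genes that passed. Of 20 genes of the vacuolar proton pump and its assembly factors, 3 were higher and 0 lower (15%), with a median of 0.07. PKR1, an assembly factor gene, was at 1.12 ± 0.25 and VMA7, a subunit gene, at 1.06 ± 0.48 (SD, n = 4; limma adjusted p = 0.00435 and 0.0124), VMA7 losing its call without array 4 (0.059). The third was the assembly factor gene VPH2, at 0.79 ± 0.46 (SD, n = 4), not called without array 1, 3 or 4 (0.0574 to 0.108) and named after its value was seen. Of 34 proteasome genes, the other main route of protein breakdown, 0 passed in limma, with means from -0.56 to 0.43. At an unadjusted limma p under 0.05, 2 of the 34 passed, against 39.8% of all named genes. The difference in these shares was not tested.

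**Figure D4:**
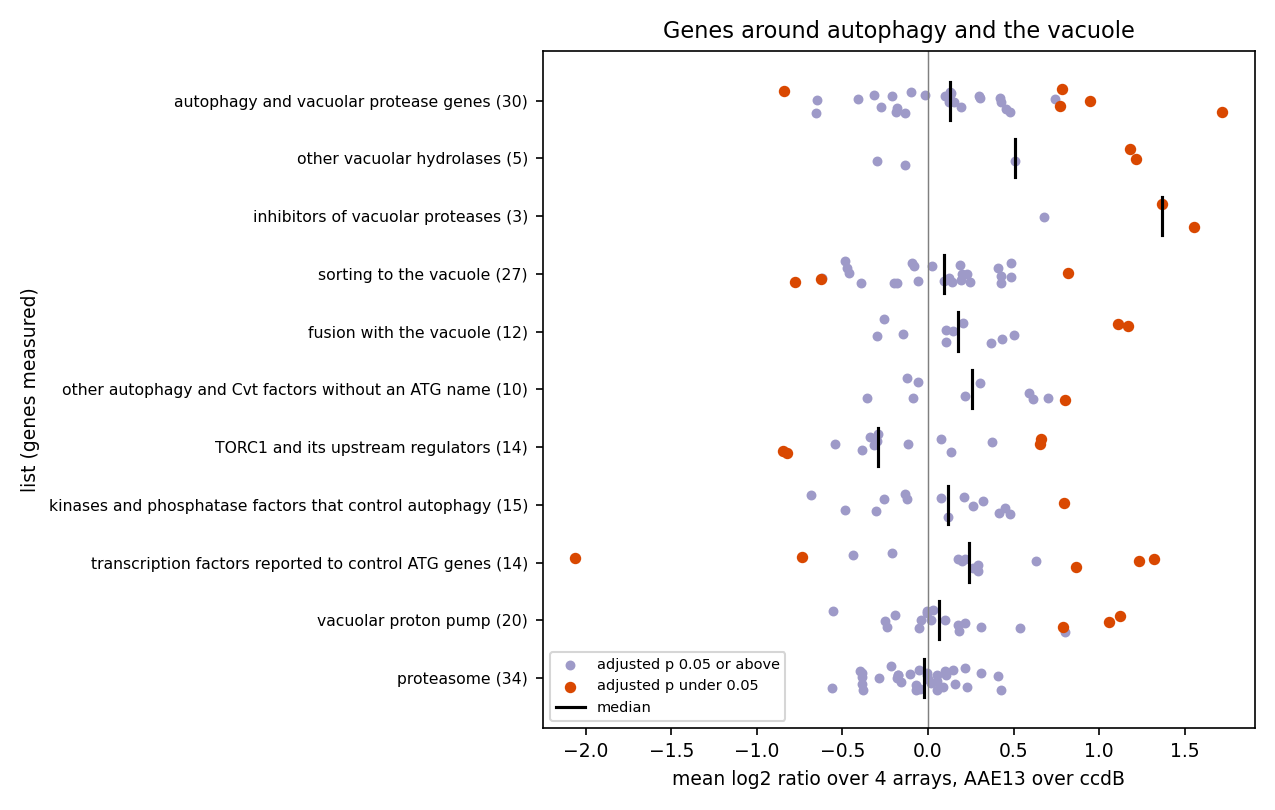
Mean log2 ratio over 4 arrays (x axis, AAE13 over ccdB) of each gene in the set and in 10 lists of genes around it (y axis, number measured in brackets). Points are genes, orange with a limma adjusted p under 0.05, and black bars are medians. The median is 1.37 for the protease inhibitors, 0.13 for the autophagy and vacuolar protease genes and -0.03 for the proteasome.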

How the data were processed

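The deposited table holds 1 log2 ratio per probe and array for 6256 probes, with 4 missing values; the log base is inferred from the values, and per the labels each array carries both strains, with RNA labelled indirectly after oligo-dT priming. The authors' normalization, software and background correction are not stated. The deposited array medians, 0.431, 0.765, -0.174 and 1.41, differed, so each array was centred on its median.

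Probe names came from the platform annotation, with 1 gene for 4075 probes and none used for 2181. Symbols were updated through the RefSeq table of assembly R64: 3942 were current, 125 were updated and the others were kept. Probes of 1 gene were averaged, and 4072 genes measured on at least 3 arrays were tested. A two-sided moderated test of each mean ratio against 0 used limma 3.58.1 (lmFit, then eBayes) under R 4.3.3, and p-values were adjusted over all 4072 genes after Benjamini and Hochberg, with a threshold of 0.05. The standard deviations are over arrays and the 95% intervals come from the same fit. The fit's calls, not its intervals, were tested on simulated data. The outcome is not given here, so no call rests on it. The labels call the 4 cultures of each strain biological replicates, and their number limits the precision. Plots used matplotlib 3.10.9 under Python 3.11.15.

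The members and gene lists were chosen with earlier results of these data known. Named are all members and, of each other list, up to 2 called genes in each direction, plus TOR1, TOR2, PAI3, PBI2 and TFS1; VPS34, VPS15, GLN3, UME6, MSN2, PHO23 and VPH2 were added after their values were seen. A planned list of 14 vacuolar amino acid transporters had 0 genes with a named probe. Counts of promoter motifs were planned and not run, since no sequences were used here. Settings varied were centring, direction, dye, scaling, weights, moderation, filter, probes, threshold and each array left out.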

Additional observations from a re-analysis of the deposited data

How the results depend on the processing

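The number of autophagy and vacuolar protease genes that passed was 5 (4 higher, 1 lower). It stayed within 1.5 times of that with a dye term, array scaling, quantile normalization, array weights, robust moderation, the filter on missing values, all probes tested, or a threshold of 0.1. Of all named genes, 24.8% passed in the main fit, 31.3% with a dye term and 35.4% at a threshold of 0.1. The share was 24.1% of probes with all probes tested, and from 24.7% to 25.9% of genes with the other settings of this list. With the arrays not centred, which puts the median of all named genes at 0.58, 5 of the set were higher and 0 lower. In that setting 19.6% of all named genes passed. At a threshold of 0.01, and likewise with a 2-fold minimum, 1 of the set was higher and 0 lower. Of all named genes 9.58% passed at 0.01 and 12.5% with the 2-fold minimum. The unmoderated test called 0 of the set, in either direction (4 at an unadjusted p under 0.05), and 143 of all genes (3.51%). Every called gene named outside the set also lost its call in that test. Without each array in turn the total ran from 2 to 5, the higher calls from 1 to 4 and the lower calls from 1 to 2, the lowest total coming without array 4, when 427 genes passed in all. Read as Cy5 over Cy3, limma called 0 in either direction, and signs turned for ATG14 (-0.38), ATG7 (-0.074), PEP4 (-0.085) and ATG13 (-0.17). Outside the set they turned for PAI3 (-0.21), TFS1 (-0.29), ATH1 (-0.37), PEP1 (0.051), VPS41 (-0.13), TRS20 (-0.15), GTR2 (-0.34), LST4 (0.20), SNF1 (-0.29), URE2 (-0.32), PHO23 (-0.26), PKR1 (-0.18) and VMA7 (-0.34). The cause of these shifts was not tested, beyond the smaller number of arrays or the changed sign that defines the setting. Over the settings other than the changed thresholds and the 2-fold minimum, 396 of 420 member values kept their side of the threshold with no called value changing sign. Most of these were of the 25 genes that did not pass. Of these settings, 13 keep the direction reading. ATG14 passed in 12 of the 13, ATG13 in 11, ATG5 in 10, PEP4 in 9 and ATG7 in 8. Each ratio already sets 1 AAE13 culture against 1 control culture, so the test of the mean ratio against 0 was paired by array. Signal over background is unknown, so its limit on each value cannot be given.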
